A study of Arabidopsis thaliana with 12 samples.

Results

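The response of transcripts to heat in flowers of an XBAT31 mutant of Arabidopsis thaliana was measured over all genes of the deposited table. The samples are the 6 mutant libraries of the 12 in the study: 3 from mutant flowers at 22 °C, labelled mock, and 3 from mutant flowers held at 38 °C for 3 h. They were chosen by their labels for genotype and temperature. Each library was made from polyadenylated RNA of 9 flowers of stages 1 to 12, and the 3 libraries of a group are labelled as biological replicates. The other 6 libraries are wild-type flowers at the same temperatures, also 3 per group, and are used where the heat responses of the genotypes are set side by side. All 4 groups were sampled at the 3 h point. The mutant allele and the ecotype are not given in the sources used here, nor is it stated whether replicates came from separate plants or days, so p-values measure the spread between these libraries. Of the 27715 genes in the table, 23585 had enough counts to be tested. Levels are given in FPKM, read pairs per unit of transcript length and of library size. Changes are log2 fold changes of 38 °C over 22 °C from edgeR's quasi-likelihood test on counts, and a gene passed at a Benjamini-Hochberg adjusted p below 0.05. The standard error (SE) given with a change is derived from that test. It is the absolute log2 fold change divided by the square root of the test's F statistic.

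Above a growth temperature that proteins tolerate, plant cells release heat shock factors, transcription factors that bind repeated GAA and TTC units in promoters, the heat shock element. Their targets code for chaperones, which hold or refold damaged proteins, and for further heat shock factors that extend the response. Flowers are among the most heat-sensitive organs of a plant, above all at meiosis and pollen formation. XBAT31 belongs to a family of E3 ubiquitin ligases with ankyrin repeats, enzymes that mark other proteins for change or breakdown. In seedlings it is known to act on ELF3, a clock protein that holds back growth in warmth.

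XBAT31 itself (AT2G28840, chromosome 2, TAIR10) was the check on the genotype labels. It stood at 54.3, 55.7 and 45.3 FPKM in the mutant at 22 °C and at 54.2, 47.5 and 49.4 FPKM at 38 °C, below all 6 wild-type libraries, which lay between 95.3 and 110.1 FPKM. At 22 °C the mutant mean was 53.8% of that in the wild type (mutant over wild type -0.93 on the log2 scale, adjusted p = 8.61e-04). At 38 °C it was 46.4% (-1.15, adjusted p = 6.98e-05). With 3 libraries a side, the exact permutation test, taken two-sided, cannot go below p = 0.1, which it reached at both temperatures. Which part of the transcript was left cannot be read from a value per gene. With heat in the mutant XBAT31 did not pass (-0.15, adjusted p = 0.22), and neither did ELF3 (-0.033, adjusted p = 0.799).

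Total counts ran from 44983198 to 53249866 over the 6 mutant libraries. The first principal component of these libraries, with 42.8% of the variance, parted the temperatures, and on the second, with 22.0%, replicate 2 at 22 °C and replicate 1 at 38 °C lay apart. The 8 floral organ genes used as flower markers were all detected and summed to between 606 and 711 FPKM in every library, so the tissue bore out its label. The 51 genes of maturing pollen summed to 3256, 3239 and 3800 FPKM at 22 °C and to 1023, 3853 and 1821 FPKM at 38 °C. The 60 genes of leaf and sepal photosynthesis summed to 19412, 10024 and 20082 FPKM at 22 °C and to 18609, 23997 and 19899 FPKM at 38 °C. At 38 °C pollen transcripts were lowest in replicate 1 and highest in replicate 2. Photosynthesis transcripts were lowest in replicate 2 at 22 °C, apart from the other libraries of its group. In bulk tissue, fewer cells of a type and less RNA per cell cannot be told apart. The 15 root markers summed to at most 15.3 FPKM, with 1 of them at 0 in all 6 libraries.

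Many genes changed with heat, mostly by small amounts. Of the 23585 genes tested, 5875 passed (24.9%), of which 2669 rose (11.3%) and 3206 fell (13.6%). The median change of all genes was -0.0025. The median of the genes that rose was 0.59 and that of the genes that fell -0.51. By fitted values 624 genes (2.65%) rose and 453 (1.92%) fell by at least 2-fold. Among these, 50 that rose had 0 counts throughout at 22 °C and 8 that fell had 0 counts throughout at 38 °C. Without such genes 574 rose and 445 fell by at least 2-fold. Measured from the floor of counts described under processing, 9 of the 50 and 1 of the 8 reached 2-fold. The 2-fold counts of the other runs are fitted ones too. The genes that rose made up 7.62% of all FPKM at 22 °C and 13.3% at 38 °C, and those that fell 28.8% and 21.5%. The libraries of both temperatures did not overlap in FPKM for 9568 of all tested genes (40.6%) and for 5353 of the genes that passed. Calls rested on each library to some degree. Leaving out replicate 2 at 22 °C cut the genes that fell from 3206 to 2181, and leaving out replicate 3 at 38 °C gave 1840 that rose and 2177 that fell. The number that fell by at least 2-fold was 312 without replicate 2 at 22 °C and 836 without replicate 2 at 38 °C.

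Direction depends on the scale for small changes. The main scaling sets the bulk of genes to no change. Scaled instead on 17 commonly used reference genes, 9 of which fell under the main scaling, the median of all genes was 0.28, and 6458 genes were higher and 827 lower, so that 88.6% of calls were higher against 45.4%. With limma on log2(FPKM + 1) the share was 65.3%, with 3938 higher and 2089 lower. Falls smaller than about 0.28 on the log2 scale are therefore falls relative to the other genes of the library. Reference-scaled counts are given below beside groups whose balance of calls turns on this.

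**Figure D1:**
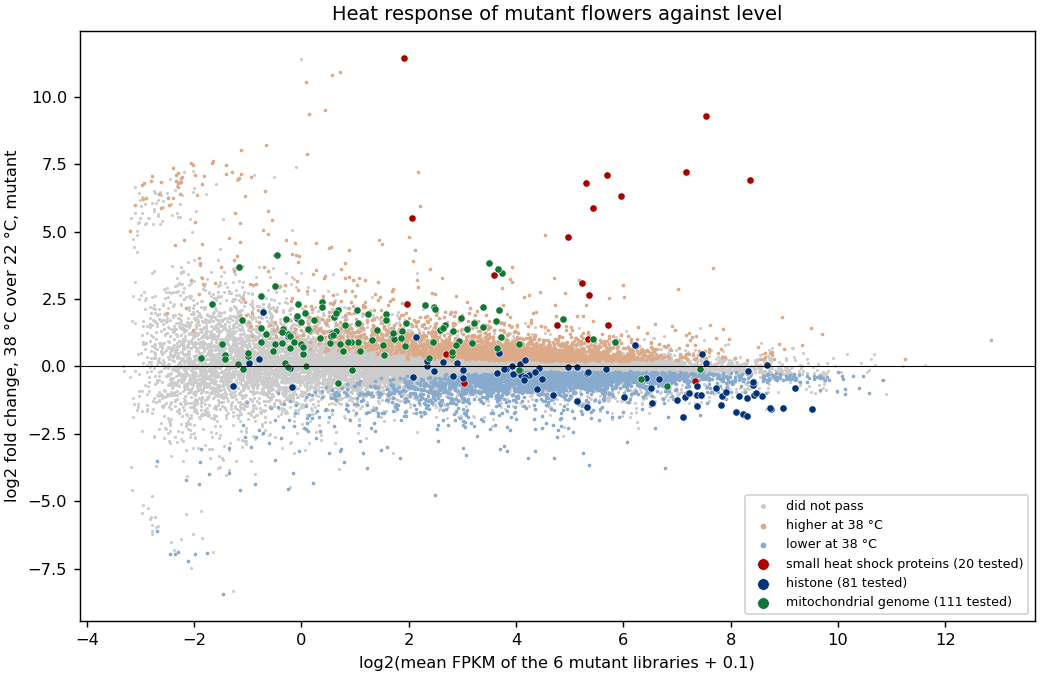
Each point is 1 of the 23585 tested genes, with the log2 of the mean FPKM of the 6 mutant libraries plus 0.1 on the x axis and the log2 fold change of 38 °C over 22 °C on the y axis. Genes that passed are in orange and light blue; small heat shock proteins, mostly far above 0, histone genes, mostly below 0 at high levels, and genes of the mitochondrial genome are marked. Fitted values beyond about 6 at low levels belong mostly to genes at or near 0 counts in a group and are no measure of size.

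Small heat shock proteins gave the largest rises of the response. These proteins bind unfolding proteins and keep them soluble until larger chaperones refold them. Of 20 genes on the list, all tested, 17 rose and 1 fell, with a median log2 fold change of 4.09 against -0.0025 for all genes. Together they went from 0.0423 ± 0.0095% of all FPKM (SD, n = 3) at 22 °C to 0.327 ± 0.040% (SD, n = 3) at 38 °C. HSP22.0 (AT4G10250), which works in the endoplasmic reticulum, stood at 0.682, 0.58 and 0.377 FPKM at 22 °C and 438, 364 and 314 FPKM at 38 °C (log2 fold change 9.30 with SE 0.34, adjusted p = 5.82e-08). HSP18.2 (AT5G59720), a cytosolic member, stood at 4.31, 5 and 5.62 FPKM at 22 °C and 695, 699.97 and 564 FPKM at 38 °C (log2 fold change 6.92 with SE 0.25, adjusted p = 5.82e-08). AT2G29500, a cytosolic member without a symbol, stood at 2.08, 1.01 and 2.19 FPKM at 22 °C and 293, 303 and 260.4 FPKM at 38 °C (log2 fold change 7.21 with SE 0.28, adjusted p = 8.94e-08). In all 3 genes every library at 38 °C was far above every library at 22 °C. HSP21, the small heat shock protein of the chloroplast, had 0 counts throughout at 22 °C and stood at 5.07, 10.6 and 6.17 FPKM at 38 °C, at least 27.7-fold higher from a floor of 12 counts per library.

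The rest of that list spread widely. Cytosolic HSP17.6II (7.11), AT1G53540 (6.79) and HSP17.4 (6.31) rose most after those, followed by HSP23.6 of the mitochondrion (5.88), AT1G52560 (5.51) and HSP17.6A (4.79). At the lower end of the genes that rose, AT2G19310 reached 1.52 and AT5G37670 2.33. AT4G21870 was the 1 member that fell, at 9.04, 7.89 and 11.5 FPKM at 22 °C and 6.61, 7.01 and 6.48 FPKM at 38 °C (log2 fold change -0.61 with SE 0.20, adjusted p = 0.049). That call was lost, with adjusted p up to 0.163, without any 1 library other than replicate 2 of the mutant and replicate 3 of the wild type, both at 22 °C. AT5G47600 and AT5G54660 did not pass. Near-identical copies among cytosolic members may share reads, and the counting step is not stated.

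Larger chaperones rose in most compartments, by far less. Of 30 genes for HSP70, HSP90, HSP100 and chaperonins, 18 rose and 2 fell, with a median of 0.40. HSP70 (AT3G12580), the heat-induced cytosolic HSP70, stood at 24.6, 28.5 and 30.6 FPKM at 22 °C and 426, 395 and 318 FPKM at 38 °C (log2 fold change 3.66 with SE 0.14, adjusted p = 8.94e-08). HSP90.1, the heat-induced cytosolic HSP90, stood at 15.4, 20.06 and 17.1 FPKM at 22 °C and 129, 114 and 91.1 FPKM at 38 °C (log2 fold change 2.57 with SE 0.15, adjusted p = 3.73e-06). HSP101, which pulls proteins out of aggregates and is needed for acquired heat tolerance, stood at 6.71, 7.83 and 6 FPKM at 22 °C and 21.9, 18.8 and 16.02 FPKM at 38 °C (log2 fold change 1.36 with SE 0.12, adjusted p = 7.44e-05). The groups did not overlap in any of these genes. Organelle forms rose by smaller steps, among them mitochondrial CLPB4 (0.86) and HSP60 (0.63), chloroplast HSP90.5 (0.80) and mitochondrial HSP90.6 (0.85). HSC70-1, the abundant cytosolic HSP70 of unstressed cells, fell (log2 fold change -0.52 with SE 0.095, adjusted p = 0.00301). With scaling on reference genes 21 of the 30 were higher and none lower, so the fall of HSC70-1 was not called on that scale. The constitutive cytosolic HSP90.2 (-0.082) and HSP90.4 (-0.068) did not pass.

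Of 23 co-chaperones and holdases, 8 rose and 2 fell, with a median of 0.20, and with scaling on reference genes 11 were higher and none lower. ROF2, a peptidyl-prolyl isomerase that binds HSP90, stood at 11.7, 12.6 and 14.5 FPKM at 22 °C and 125, 125 and 91.2 FPKM at 38 °C (log2 fold change 3.03 with SE 0.14, adjusted p = 5.96e-07). HOP3, which links HSP70 to HSP90, rose by 2.54, and its relative HOP1 did not pass (-0.10, adjusted p = 0.354). ROF1, the isomerase most like ROF2, rose by 0.79, and BAG6, a co-chaperone of HSP70, by 0.65. Proteins with a DnaJ domain, the partners that bring clients to HSP70, were called about as often as all genes. Of 112 tested genes 15 were higher (13.4%) and 16 lower (14.3%), against 11.3% and 13.6% of all tested genes. Their median was 0.0083. With scaling on reference genes 44 were higher and 6 lower, with a median of 0.29.

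Heat shock factors did not move as a group. Of 19 tested, 7 rose and 3 fell, with a median of 0.27. HSFA2 (AT2G26150), which sustains the response, stood at 2.72, 4.36 and 2.69 FPKM at 22 °C and 16.2, 13.9 and 11.7 FPKM at 38 °C (log2 fold change 1.99 with SE 0.22, adjusted p = 1.84e-04). HSFA7A stood at 0.1, 0 and 0.0618 FPKM at 22 °C and 0.441, 1.86 and 1.15 FPKM at 38 °C (log2 fold change 4.15 with SE 0.83, adjusted p = 0.00688). HSFA7B had 0 counts throughout at 22 °C and stood at 0.418, 0.354 and 0.334 FPKM at 38 °C, too low to give a fold of 2 or more from the floor. HSFA8 (0.91), HSFB1 (0.81), HSFA3 (0.68) and HSFA1E (0.54) also rose. The other A1 factors, which start the response as existing proteins, did not pass, with HSFA1A at -0.12, HSFA1B at 0.013 and HSFA1D at 0.27.

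The class B factors HSFB2A and HSFB2B, repressors that damp the response, went down in the mutant. HSFB2B (AT4G11660) stood at 7.36, 8.29 and 8.7 FPKM at 22 °C and 5.75, 4.9 and 4.98 FPKM at 38 °C (log2 fold change -0.75 with SE 0.12, adjusted p = 0.00177), with no overlap of the groups. HSFB2A (AT5G62020) stood at 7.53, 5.86 and 6.63 FPKM at 22 °C and 3.85, 5.93 and 4.14 FPKM at 38 °C (log2 fold change -0.63 with SE 0.17, adjusted p = 0.0201), and its groups overlapped, since replicate 2 at 38 °C was above replicate 2 at 22 °C. The call for HSFB2A was lost without replicate 1 at 22 °C, replicate 1 at 38 °C or replicate 3 at 38 °C, with adjusted p up to 0.0779. In the wild type HSFB2B went from 8.89 ± 1.48 FPKM to 29.4 ± 3.06 FPKM (1.63) and HSFB2A from 6.11 ± 0.326 FPKM to 18.9 ± 0.985 FPKM (1.53). The heat responses differed between the genotypes for HSFB2B (mutant minus wild type -2.38, SE 0.18, adjusted p = 3.12e-04) and for HSFB2A (-2.16, SE 0.24, adjusted p = 0.0043). HSFA5, a class A factor, fell as well (log2 fold change -0.84 with SE 0.12, adjusted p = 8.38e-04). With scaling on reference genes 2 of the 19 heat shock factors tested were lower, so not all of these 3 falls were called on that scale.

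**Figure D2:**
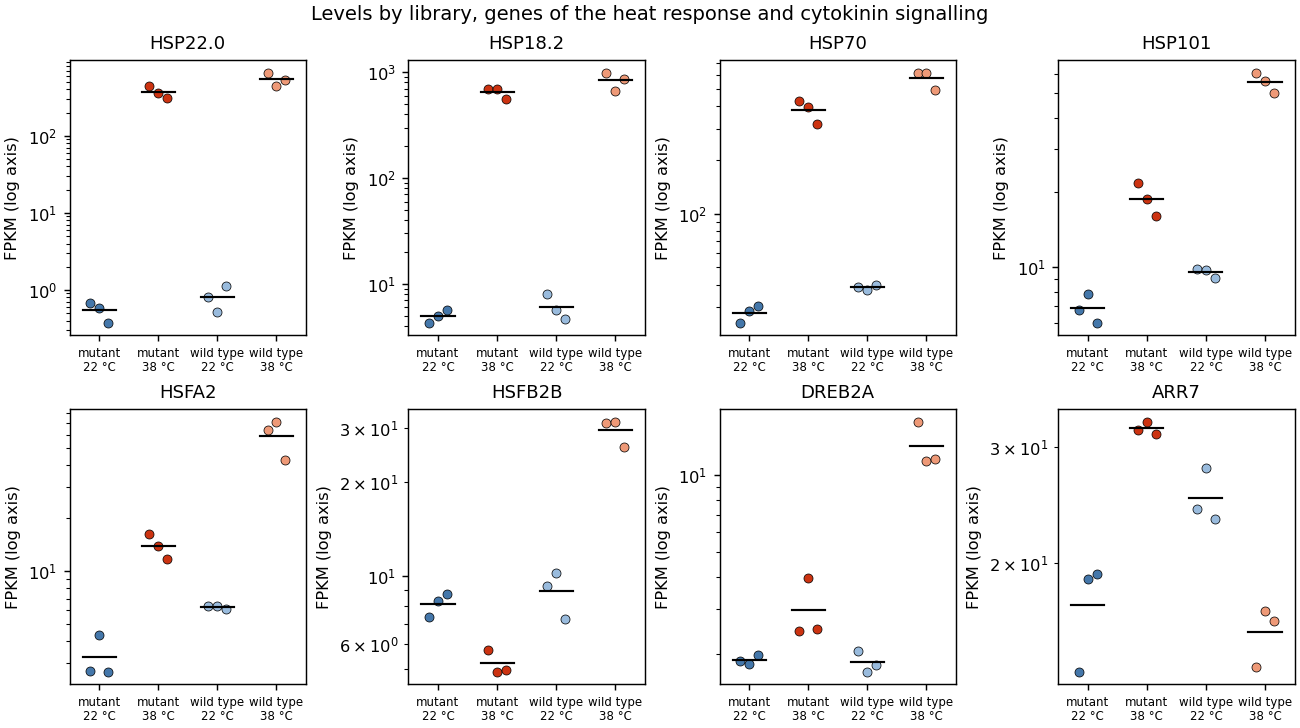
FPKM on a log axis for 8 genes, with 1 point per library, 3 libraries per group and a bar at the group mean. HSP22.0, HSP18.2, HSP70, HSP101 and HSFA2 are higher in every mutant library at 38 °C than in any at 22 °C, HSFB2B is lower in the mutant and higher in the wild type, DREB2A is far higher at 38 °C in the wild type than in the mutant, and ARR7 goes up in the mutant and down in the wild type.

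Promoters were read to see which of the rising genes carry the heat shock element close to the gene. The window was the 250 bases before the start of the gene in the RefSeq annotation of TAIR10.1, available for 22209 of the tested genes, all protein-coding. The motif searched had 3 alternating units with any 2 bases between neighbours, either GAA, TTC, GAA or TTC, GAA, TTC. These forms are each other's reverse complement, so both strands are covered, and a pair of matches may overlap. The shorter motif of a pair of units, GAA then TTC or TTC then GAA with the same gap, lies inside every longer match, and each form equals its own reverse complement. The 3-unit motif was found in 91 of the 22209 windows (0.41%). It was found in 16 of 2437 genes that rose (0.657%), in 8 of 442 that rose by at least 2-fold (1.81%), in 5 of 129 that rose by at least 4-fold (3.88%) and in 4 of 32 that rose by at least 16-fold (12.5%), where genes at 0 at 22 °C are left out of the fold classes. Among genes that fell it was found in 11 of 3163 (0.348%), and among those that did not pass in 64 of 16609 (0.385%). The shorter motif was common, in 3528 windows (15.9%), and was found in 10 of the 32 genes that rose by at least 16-fold (31.2%). Of the lists, 3 of 19 heat shock factors and 2 of 20 small heat shock proteins held the 3-unit motif, and none of 53 chaperones and co-chaperones did. No match says only that these letters are absent from this window, and the shares are a description with no test.

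The 8 windows below are shown because their genes hold the 3-unit motif and belong to the heat response: 3 heat shock factors, 2 cytosolic small heat shock proteins, AT1G71000, a chaperone of the DnaJ family, GOLS1 of raffinose synthesis and DREB2A, an activator that switches on HSFA3. They read 5′ to 3′ on the strand of the gene, from RefSeq's TAIR10.1, and capitals mark the 3-unit motif.
HSFA2, chr2:11135374-11135623, plus strand: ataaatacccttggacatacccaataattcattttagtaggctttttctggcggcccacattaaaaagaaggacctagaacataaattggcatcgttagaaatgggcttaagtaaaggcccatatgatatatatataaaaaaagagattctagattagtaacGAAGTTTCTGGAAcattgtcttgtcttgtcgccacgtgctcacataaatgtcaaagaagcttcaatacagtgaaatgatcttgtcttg
HSFA7A, chr3:19264891-19265140, plus strand: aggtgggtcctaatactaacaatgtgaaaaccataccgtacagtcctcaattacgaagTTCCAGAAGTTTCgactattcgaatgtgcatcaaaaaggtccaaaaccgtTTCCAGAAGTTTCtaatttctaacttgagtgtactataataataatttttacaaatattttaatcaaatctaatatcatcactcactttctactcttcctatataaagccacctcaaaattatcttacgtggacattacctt
HSFA7B, chr3:23398986-23399235, plus strand: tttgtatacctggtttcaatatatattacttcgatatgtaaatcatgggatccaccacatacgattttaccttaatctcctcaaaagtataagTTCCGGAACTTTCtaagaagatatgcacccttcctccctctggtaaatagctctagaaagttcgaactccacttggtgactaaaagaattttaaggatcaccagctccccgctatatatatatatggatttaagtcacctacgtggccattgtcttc
HSP17.4, chr3:16984868-16985117, minus strand: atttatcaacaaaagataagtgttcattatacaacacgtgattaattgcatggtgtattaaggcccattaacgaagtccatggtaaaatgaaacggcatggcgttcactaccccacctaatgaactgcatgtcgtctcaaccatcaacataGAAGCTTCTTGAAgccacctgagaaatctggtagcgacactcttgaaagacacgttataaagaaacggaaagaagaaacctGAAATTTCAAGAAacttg
AT1G53540, chr1:19980049-19980298, plus strand: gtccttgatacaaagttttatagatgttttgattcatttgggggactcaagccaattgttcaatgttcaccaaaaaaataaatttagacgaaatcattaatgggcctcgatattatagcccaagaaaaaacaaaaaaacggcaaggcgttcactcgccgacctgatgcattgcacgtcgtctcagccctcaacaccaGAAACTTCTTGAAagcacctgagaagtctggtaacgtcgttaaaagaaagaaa
AT1G71000, chr1:26770178-26770427, minus strand: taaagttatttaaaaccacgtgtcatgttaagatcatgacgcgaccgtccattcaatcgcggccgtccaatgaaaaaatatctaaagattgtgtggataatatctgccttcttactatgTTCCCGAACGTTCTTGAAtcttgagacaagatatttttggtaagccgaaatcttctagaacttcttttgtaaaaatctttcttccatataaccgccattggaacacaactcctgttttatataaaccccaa
GOLS1, chr2:19370479-19370728, minus strand: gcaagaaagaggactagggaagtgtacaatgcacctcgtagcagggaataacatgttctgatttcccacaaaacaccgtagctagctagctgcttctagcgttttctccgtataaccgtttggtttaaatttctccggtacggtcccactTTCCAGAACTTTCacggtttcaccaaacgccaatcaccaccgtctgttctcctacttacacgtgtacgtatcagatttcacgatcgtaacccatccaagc
DREB2A, chr5:1601955-1602204, plus strand: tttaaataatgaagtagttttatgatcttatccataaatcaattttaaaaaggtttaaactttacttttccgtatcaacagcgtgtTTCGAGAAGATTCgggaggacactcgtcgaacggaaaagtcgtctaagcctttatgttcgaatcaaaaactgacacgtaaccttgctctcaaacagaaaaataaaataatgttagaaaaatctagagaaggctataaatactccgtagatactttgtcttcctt
In HSFA2 the motif begins 88 bases before the gene's start, in HSP17.4 99, in AT1G53540 53, in GOLS1 100 and in DREB2A 164. HSFA7A, HSP17.4 and AT1G71000 hold 2 matches each. Of these genes DREB2A did not pass for heat in the mutant, and the others passed. The windows of HSP22.0, HSP18.2, AT2G29500, HSP70 and HSP101, with rises from 1.36 to 9.30, and those of HSFB2A and HSFB2B held neither motif.

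AT1G71000, carrier of 2 of these matches, stood at 0.347, 0 and 0.234 FPKM at 22 °C and 5.19, 6.9 and 3.66 FPKM at 38 °C (log2 fold change 4.55 with SE 0.62, adjusted p = 5.72e-04). GOLS1, galactinol synthase, the first step towards the protective sugar raffinose, stood at 3.88, 2.08 and 2.71 FPKM at 22 °C and 27.6, 25.9 and 28.8 FPKM at 38 °C (log2 fold change 3.13 with SE 0.23, adjusted p = 1.72e-05). The later enzymes RS2 (-1.70) and RS6 (-1.93) fell, and GOLS2 (2.87) and GOLS3 (5.30) did not pass. DREB2A stood at 1.88, 1.82 and 1.97 FPKM at 22 °C and 2.45, 3.95 and 2.49 FPKM at 38 °C (log2 fold change 0.55 with SE 0.22, adjusted p = 0.0932), with every library at 38 °C above those at 22 °C but the gene short of the threshold. In the wild type at 38 °C it reached 13.1 ± 2.72 FPKM. APX2, the cytosolic ascorbate peroxidase known to be heat-induced, stood at 0.153, 0 and 0 FPKM at 22 °C and 10.2, 9.06 and 6.95 FPKM at 38 °C (log2 fold change 7.23 with SE 0.76, adjusted p = 1.39e-04). Of the 37 antioxidant enzymes 6 rose and 4 fell, with a median of 0.11, and with scaling on reference genes 18 were higher and none lower.

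Of 31 genes of protein folding in the endoplasmic reticulum 14 rose and 1 fell, with a median of 0.31. BIP2, the main HSP70 of that compartment, stood at 318, 310.1 and 366 FPKM at 22 °C and 709, 609 and 569 FPKM at 38 °C (log2 fold change 0.82 with SE 0.10, adjusted p = 3.89e-04). The protein disulfide isomerase PDIL2-2 stood at 22.3, 23.02 and 27.3 FPKM at 22 °C and 64.4, 57.7 and 51.1 FPKM at 38 °C (log2 fold change 1.15 with SE 0.10, adjusted p = 7.11e-05). BIP1 (0.65), PDIL2-3 (0.97) and the lectin chaperone CNX1 (0.48) rose too. BIP3, the form most tied to the unfolded protein response, had 0.31 and did not pass (adjusted p = 0.681).

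Among genes that passed and have a symbol, the largest gain in FPKM was in an RNA-binding protein of the clock list. This was GRP7, a glycine-rich RNA-binding protein under clock control. GRP7 stood at 4761, 4628 and 4842 FPKM at 22 °C and 10199, 9459.9 and 10497 FPKM at 38 °C (log2 fold change 0.98 with SE 0.087, adjusted p = 6.10e-05). Its relative GRP8 stood at 333, 404 and 371 FPKM at 22 °C and 1066, 1033 and 1099.9 FPKM at 38 °C (log2 fold change 1.42 with SE 0.084, adjusted p = 3.36e-06). Of 32 clock genes 12 rose and 5 fell, with a median of 0.22. The list went from 0.794 ± 0.018% to 1.70 ± 0.091% of all FPKM (SD, n = 3), most of it GRP7 and GRP8, which went from 0.726 ± 0.015% to 1.602 ± 0.091%. The other 30 genes together went from 0.0683 ± 0.0028% to 0.0960 ± 0.0016%. The daytime repressor PRR7 (0.99), the evening gene GI (0.56) and the morning factor CCA1 (1.54) rose. CCA1 stood at 1.48, 1.58 and 2 FPKM at 22 °C and 4.9, 5.78 and 5.13 FPKM at 38 °C, with no overlap. RVE2, a MYB factor of the same family, fell and stood at 37.4, 29.01 and 29.7 FPKM at 22 °C and 13.7, 16.2 and 12.3 FPKM at 38 °C (log2 fold change -1.29 with SE 0.18, adjusted p = 6.49e-04). The 5 clock genes that fell came down to 3 without any 1 library at 22 °C or replicate 2 at 38 °C, and to 2 without replicate 1 at 38 °C. The hour of sampling is not given in the labels, and its part in these values was not tested.

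The related list of thermomorphogenesis, growth at warm temperature, had 4 of 30 genes higher and 8 lower, with a median of -0.039, or 0.25 with scaling on reference genes, under which 7 were higher and 5 lower. Without replicate 2 at 22 °C 5 were lower. The growth-promoting factors PIF5 (log2 fold change 1.51 with SE 0.19, adjusted p = 4.14e-04), PIF7 (2.22) and PIF4 (0.91) rose. HY5, which opposes them, stood at 16.95, 17.38 and 17.03 FPKM at 22 °C and 7.82, 8.7 and 8.66 FPKM at 38 °C (log2 fold change -1.13 with SE 0.11, adjusted p = 1.08e-04), and HFR1, which binds and blocks them, fell by -1.15. YUC8, an auxin synthesis gene that PIF4 drives in warm seedlings, did not pass (0.45).

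Genes of drought and abscisic acid rose in part. Of 52 tested 17 rose and 7 fell, with a median of 0.38. RD29A, a dehydration-induced protein, stood at 2, 1.98 and 2.03 FPKM at 22 °C and 23.8, 34.4 and 26.2 FPKM at 38 °C (log2 fold change 3.71 with SE 0.26, adjusted p = 1.18e-05). RAB18, a dehydrin, stood at 0.0917, 0 and 0.607 FPKM at 22 °C and 9.79, 8.64 and 4.27 FPKM at 38 °C (log2 fold change 4.80 with SE 0.84, adjusted p = 0.00222). RD29A and RAB18 were low in all libraries at 22 °C and did not overlap. The factor ABI5 (1.01), which acts on such genes, and the phosphatases ABI2 (1.29) and HAI2 (1.31), which brake the pathway, rose. The receptors PYR1 (-0.87), PYL4 (-0.51), PYL5 (-1.22) and PYL6 (-0.98) fell. ERD5, the proline dehydrogenase, stood at 175, 156 and 145 FPKM at 22 °C and 19.9, 49.3 and 35.4 FPKM at 38 °C (log2 fold change -2.29 with SE 0.31, adjusted p = 6.16e-04), and P5CS1, which makes proline, rose by 0.92.

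The cytokinin list moved both ways, and the type A response regulators ARR5, ARR7 and ARR8 were among its genes that rose. ARR7, a type A regulator that dampens cytokinin signalling and is itself induced by it, stood at 13.7, 18.9 and 19.2 FPKM at 22 °C and 31.9, 32.8 and 31.4 FPKM at 38 °C (log2 fold change 0.79 with SE 0.13, adjusted p = 0.00182). ARR5 (1.08) and ARR8 (0.53) of the same type rose too. Not every type A regulator that passed is named here. Those left out include the gene with the smallest p on the list, and their directions are not given. Of the 33 cytokinin genes tested 8 rose and 7 fell, with a median of 0.13, and those that fell, 7 in all, included the type B factor ARR2 (-0.71). The 7 that fell came down to 3 without replicate 2 at 22 °C, replicate 1 or replicate 2 at 38 °C, and to 4 without replicate 3 at 38 °C or wild-type replicate 2 or 3 at 22 °C. With scaling on reference genes 1 fell and 11 rose. Of other hormone lists, auxin had 3 of 52 higher and 10 lower, ethylene 2 of 28 and 5, and salicylic acid 3 of 30 and 1. With scaling on reference genes auxin had 11 higher and 1 lower, ethylene 6 and 2, and salicylic acid 8 and 1.

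Among the 15 largest falls of genes with a symbol were a thioredoxin, a beta-amylase-like protein and a DnaJ protein of the chloroplast. ACHT5, an atypical thioredoxin of the chloroplast, stood at 95.5, 86.9 and 45.3 FPKM at 22 °C and 4.4, 7.7 and 6.99 FPKM at 38 °C (log2 fold change -3.67 with SE 0.28, adjusted p = 2.42e-05). BAM9, a beta-amylase-like protein without known catalytic activity, stood at 57.2, 48.8 and 35.8 FPKM at 22 °C and 4.05, 4.79 and 5.79 FPKM at 38 °C (log2 fold change -3.38 with SE 0.17, adjusted p = 9.39e-07). J11, a small DnaJ protein of the chloroplast, stood at 70.8, 37.6 and 30.5 FPKM at 22 °C and 6.37, 9.88 and 7.96 FPKM at 38 °C (log2 fold change -2.62 with SE 0.31, adjusted p = 2.60e-04). In each of them replicate 3 was the lowest at 22 °C and still above all libraries at 38 °C. BT5, a BTB and TAZ domain protein, fell by -3.29. Of 40 starch and sugar enzymes 5 rose and 3 fell, with a median of 0.085, and with scaling on reference genes 19 were higher and 1 lower. BAM5, a beta-amylase of the phloem, rose (log2 fold change 1.82 with SE 0.29, adjusted p = 0.00151), and its level by library was 248, 101 and 264 FPKM at 22 °C and 771, 772 and 804 FPKM at 38 °C, lowest in replicate 2 at 22 °C, as photosynthesis transcripts were. The part of tissue makeup in that rise was not tested.

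**Figure D3:**
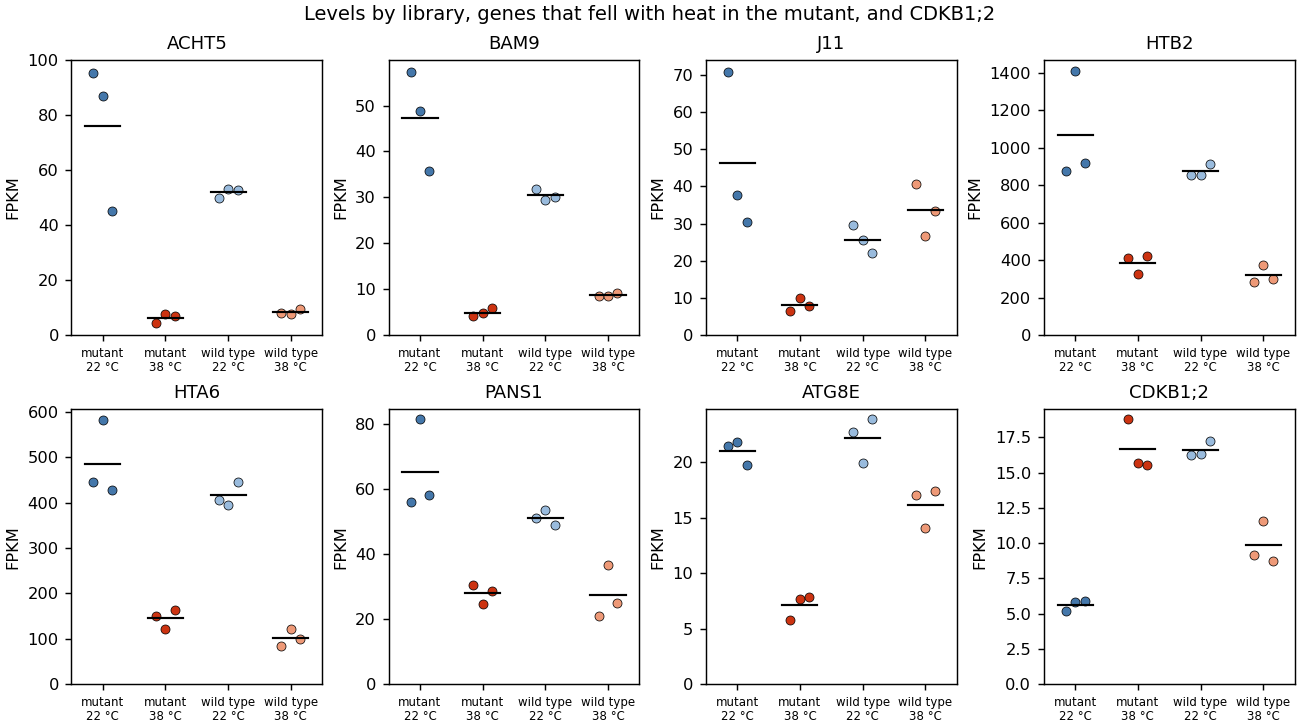
FPKM on a linear axis for 8 genes, with 1 point per library, 3 libraries per group and a bar at the group mean. ACHT5, BAM9, J11, HTB2, HTA6, PANS1 and ATG8E are lower in every mutant library at 38 °C than in any at 22 °C; CDKB1;2 is higher, reaching the wild-type level at 22 °C.

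Histone genes fell more often than they rose. Of 81 genes described as histones or as enzymes that modify them, 4 rose and 36 fell, 24 by at least 2-fold, with a median of -0.43. With scaling on reference genes 9 rose and 33 fell. HTB2, a histone H2B, stood at 877, 1412 and 919.7 FPKM at 22 °C and 414, 324 and 424 FPKM at 38 °C (log2 fold change -1.57 with SE 0.18, adjusted p = 2.02e-04). HTA6, a histone H2A, stood at 446, 581 and 428 FPKM at 22 °C and 150.5, 122 and 164 FPKM at 38 °C (log2 fold change -1.84 with SE 0.16, adjusted p = 4.67e-05). HTA11, an H2A.Z histone, stood at 185, 284 and 174 FPKM at 22 °C and 70.9, 48.2 and 71.1 FPKM at 38 °C (log2 fold change -1.86 with SE 0.21, adjusted p = 2.32e-04). In all of them replicate 2 was the highest library at 22 °C and replicate 2 the lowest at 38 °C, and the groups did not overlap. The family held 1.9 ± 0.34% of all FPKM at 22 °C and 1.05 ± 0.099% at 38 °C (SD, n = 3). Leaving out any 1 library gave between 35 and 40 that fell. The exceptions that rose included HIS1-3, a linker histone induced by drought (log2 fold change 1.09 with SE 0.27, adjusted p = 0.0145), and the enzymes HDT4 (0.79) and HAC1 (0.49). Copies of histone genes are alike in sequence and may share reads.

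Of 73 genes of the cell cycle and DNA replication 4 rose and 33 fell, with a median of -0.38. KNOLLE, the syntaxin of the forming cell plate, stood at 96.4, 134 and 97.5 FPKM at 22 °C and 73.1, 55.1 and 66.8 FPKM at 38 °C (log2 fold change -0.85 with SE 0.18, adjusted p = 0.00565). PCNA1, the sliding clamp of DNA replication, stood at 66.1, 85.3 and 58.5 FPKM at 22 °C and 47.3, 40.3 and 44.5 FPKM at 38 °C (log2 fold change -0.77 with SE 0.15, adjusted p = 0.00333). WEE1, a checkpoint kinase (-1.12), ORC6, of the origin recognition complex (-1.17), and CYCA3;1, a cyclin of S phase (-0.94), fell as well. CDKB1;2, a plant-specific mitotic kinase, went the other way, at 5.2, 5.81 and 5.91 FPKM at 22 °C and 18.8, 15.6 and 15.5 FPKM at 38 °C (log2 fold change 1.45 with SE 0.12, adjusted p = 4.67e-05). The 33 that fell came down to 12 without replicate 2 at 22 °C, to 17 without replicate 2 at 38 °C and to 16 without replicate 3 at 38 °C, and with scaling on reference genes to 7, beside 8 that rose. Tubulins, the subunits of microtubules, fell in 14 of 25 cases and rose in 2, with a median of -0.47, and with scaling on reference genes 4 fell and 2 rose.

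No gene of the meiosis or floral identity lists rose. Of 35 meiosis genes 11 fell, with a median of -0.41, or -0.13 on the reference scale with 3 lower and 2 higher. PANS1, which guards the cohesion of chromosomes in meiosis, stood at 55.9, 81.4 and 58.02 FPKM at 22 °C and 30.4, 24.8 and 28.5 FPKM at 38 °C (log2 fold change -1.33 with SE 0.19, adjusted p = 7.62e-04), and ZYP1A, of the synaptonemal complex, had -1.01. DMC1, the recombinase used in meiosis alone, did not pass (-0.077, adjusted p = 0.782). The 11 that fell came down to 4 without replicate 2 at 22 °C, to 6 without any 1 library at 38 °C and to 7 without wild-type replicate 2 at 22 °C. Of 39 floral identity and meristem genes 14 fell, with a median of -0.33, or -0.05 on the reference scale with 2 lower and 3 higher. SEP2, a MADS-box factor of floral organ identity, stood at 120.0, 124 and 124 FPKM at 22 °C and 94.2, 81.4 and 91.2 FPKM at 38 °C (log2 fold change -0.57 with SE 0.067, adjusted p = 2.61e-04), and AGL24, a factor of the shift to flowering, fell by -1.66. The 14 came down to 3 without replicate 2 at 22 °C, 7 without replicate 2 and 6 without replicate 3 at 38 °C, and 9 without wild-type replicate 3 at 22 °C. AP1 (0.49), AP3 (-0.19), PI (-0.14) and LFY (0.21) did not pass. The median of the 51 maturing pollen genes was -0.70, but 1 passed, and their summed level in the libraries at 38 °C ran from 1023 to 3853 FPKM.

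Of 55 genes of the proteasome complex, the cell's main protein-degrading machine, 35 fell and 1 rose, with a median of -0.31, but with scaling on reference genes 4 fell and 4 rose and the median was -0.02. PAC1, a subunit of its core, had the largest fall, log2 fold change -0.62 with SE 0.09, adjusted p = 8.35e-04, from 129, 152 and 137 FPKM at 22 °C and 103, 90.38 and 99.99 FPKM at 38 °C. Of 24 autophagy genes 11 fell and none rose, with a median of -0.32, and on the reference scale 4 fell and 1 rose. ATG8E, a ubiquitin-like protein that coats autophagosomes, stood at 21.5, 21.8 and 19.7 FPKM at 22 °C and 5.82, 7.69 and 7.81 FPKM at 38 °C (log2 fold change -1.67 with SE 0.14, adjusted p = 5.41e-05). ATG8F of the same family fell by -0.79, while ATG5, ATG7 and ATG9 of the core machinery did not pass, at -0.20, -0.035 and 0.092. The 11 came down to 7 without replicate 2 at 22 °C or without replicate 1 or 3 at 38 °C.

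Among genes that make ribosomes and serve organelle RNA, more rose than fell. Of 91 genes of rRNA processing 46 rose and 4 fell, with a median of 0.32, and 30 rose without replicate 1 at 22 °C. SWA1, needed to process the rRNA precursor and for growth of the female gametophyte, stood at 21.9, 29.6 and 21.9 FPKM at 22 °C and 53.8, 45.8 and 47.6 FPKM at 38 °C (log2 fold change 0.90 with SE 0.11, adjusted p = 3.35e-04). RID2, a nuclear methyltransferase-like protein of the same process, stood at 22.3, 25.8 and 24.5 FPKM at 22 °C and 47.4, 45.01 and 46.5 FPKM at 38 °C (log2 fold change 0.83 with SE 0.083, adjusted p = 1.11e-04). The 193 genes of the cytosolic ribosome moved differently, with 9 higher and 46 lower and a median of -0.16, a sign that turned to 0.13 with scaling on reference genes. Those 46 came down to 17 without replicate 2 at either temperature, to 21 without replicate 3 at 38 °C and to 28 without wild-type replicate 3 at 22 °C. Of 249 pentatricopeptide repeat proteins, which edit, splice and stabilise RNA in mitochondria and chloroplasts, 84 rose and 4 fell, with a median of 0.35. Without replicate 1 at 22 °C 55 rose and without replicate 1 at 38 °C 52. MEF3, which edits a mitochondrial transcript, stood at 1.05, 1.18 and 1.06 FPKM at 22 °C and 4.03, 3.07 and 2.38 FPKM at 38 °C (log2 fold change 1.41 with SE 0.27, adjusted p = 0.00333). Splicing factors of the SR group went both ways, 6 of 20 higher and 3 lower, or 6 and none with scaling on reference genes, led by SR30 at 92.9, 96.7 and 94.4 FPKM at 22 °C and 227, 208 and 216 FPKM at 38 °C (log2 fold change 1.09 with SE 0.065, adjusted p = 3.62e-06).

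Of 111 tested genes of the mitochondrial genome 34 rose, none fell and 77 did not pass, with a median of 1.15. ATMG00650, a subunit of NADH dehydrogenase, stood at 2.04, 4.47 and 3.84 FPKM at 22 °C and 23.05, 16.2 and 12.6 FPKM at 38 °C (log2 fold change 2.2 with SE 0.36, adjusted p = 0.00158). ATMG01170, a subunit of the ATP synthase, stood at 1.13, 2.8 and 0.775 FPKM at 22 °C and 8.49, 8.45 and 7.31 FPKM at 38 °C (log2 fold change 2.27 with SE 0.39, adjusted p = 0.00217). In both genes all libraries at 38 °C were above those at 22 °C. Copies of mitochondrial sequence in the nucleus may share reads. As a share of FPKM the 145 mitochondrial genes of the table held 0.0959 ± 0.037% at 22 °C and 0.152 ± 0.029% at 38 °C (SD, n = 3), and replicate 2 at 22 °C (0.135%) was above replicate 3 at 38 °C (0.130%). As a share of counts, which is not scaled to length, the means were 0.0876% and 0.0998%. Libraries were selected for poly(A) tails, which in plant mitochondria mark transcripts for decay, so these levels are those of tailed RNA. In the wild type 87 of the 111 rose, with a median of 2.68, and 6 had a smaller response in the mutant.

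**Figure D4:**
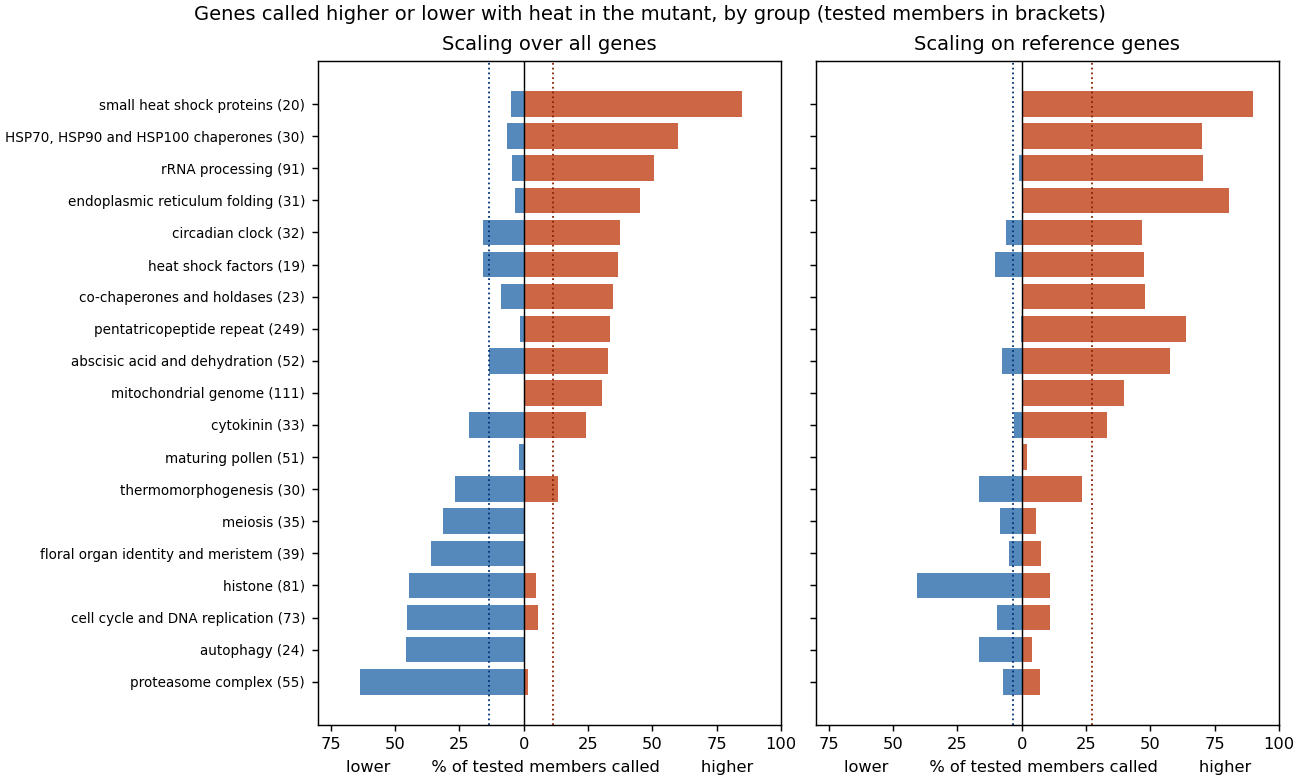
Bars give the percentage of tested members of each gene group called higher (right) or lower (left) with heat in the mutant, under the main scaling (left panel) and with scaling on 17 reference genes (right panel); dotted lines mark the share of all tested genes. Small heat shock proteins (17 of 20) and larger chaperones (18 of 30) are mostly higher in both panels. Histones are more often lower than higher in both, at 36 and 33 of 81 lower. For the proteasome complex, cell cycle, floral identity and cytokinin groups the left panel's lower calls largely disappear on the right. There 4, 8, 3 and 11 members are higher.

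Set beside the wild type, the mutant's response was of the same order in numbers of genes. In the wild type 7241 genes passed (30.7%), 3375 higher (14.3%) and 3866 lower (16.4%). The genes higher in both genotypes numbered 1621, which is 60.7% of the mutant's and 48.0% of the wild type's, and those lower in both 2047, 63.9% and 53.0%. These contrasts share no library. A gene that passed in one genotype and not in the other is not thereby shown to differ, so the difference itself was tested: it passed for 374 genes (1.59%), 96 more positive (0.407%) and 278 more negative (1.18%) in the mutant. The count is unstable, at 60 without wild-type replicate 2 at 22 °C and 499 without mutant replicate 3 at 22 °C, and it was 24 without the 3 libraries that lay apart.

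On the lists of heat shock factors, small heat shock proteins, larger chaperones and co-chaperones, 7 differences passed, all more negative in the mutant. HSP101 rose by 1.36 in the mutant and 2.44 in the wild type (difference -1.09, SE 0.17, adjusted p = 0.0172), a call lost without wild-type replicate 2 at 22 °C or wild-type replicate 1 at 38 °C, with adjusted p up to 0.0589. HSP70T-2, a truncated HSP70, rose by 1.06 and 2.77 (difference -1.71, SE 0.15, adjusted p = 7.94e-04). DREB2A had 0.55 and 2.72 (difference -2.17, SE 0.31, adjusted p = 0.0115). Smaller rises in the mutant were also called for BAG6 (difference -1.47, SE 0.19, adjusted p = 0.0086) and the splicing factor SR45A (difference -1.15, SE 0.16, adjusted p = 0.00929). For HSFA2, with 1.99 and 3.14, the difference did not pass (-1.15, SE 0.30, adjusted p = 0.0814). HSP22.0 (0.054, SE 0.38, adjusted p = 0.968) and HSP18.2 (-0.085, SE 0.28, adjusted p = 0.924), the small heat shock proteins with the highest FPKM at 38 °C, and HSP70 (-0.13, SE 0.18, adjusted p = 0.773) did not pass either. Over the 20 small heat shock proteins the median difference was -0.73, and 1 passed, AT1G54050 (difference -1.40, SE 0.23, adjusted p = 0.0175). That call was lost, with adjusted p up to 0.0652, without replicate 1 of any group other than the mutant at 38 °C, mutant replicate 3 at 38 °C or wild-type replicate 2 at 22 °C.

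**Figure D5:**
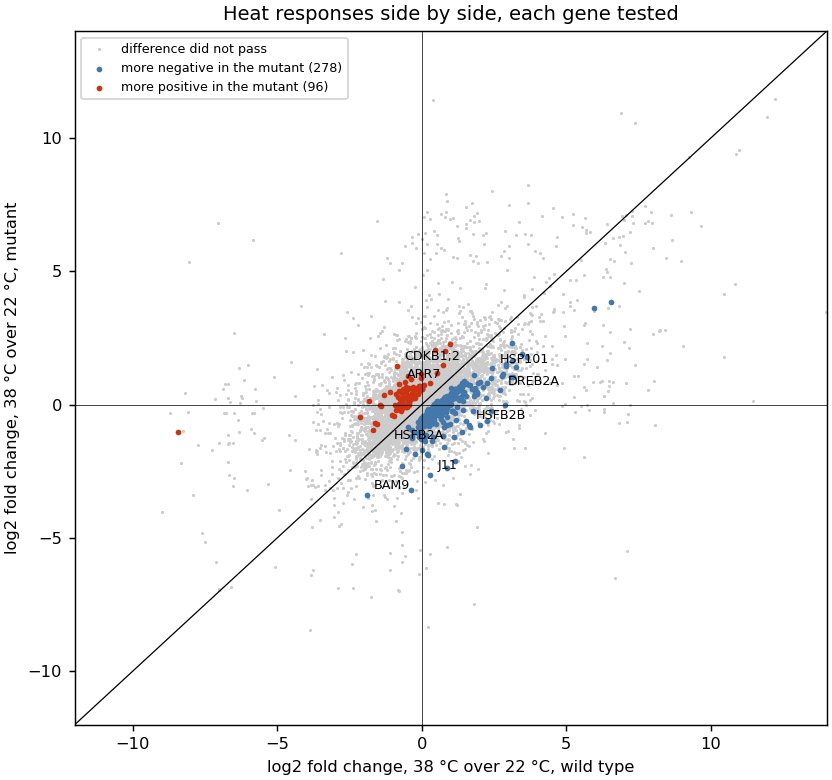
Each point is a tested gene, with its log2 fold change of 38 °C over 22 °C in the wild type on the x axis and in the mutant on the y axis; the diagonal marks equal change. The 374 genes whose difference passed are coloured, 278 below and 96 above the diagonal, and HSFB2A and HSFB2B lie right of 0 in the wild type and under 0 in the mutant.

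Differences in the other direction included ARR7 and CDKB1;2. ARR7 rose in the mutant and fell in the wild type, from 25.1 ± 2.45 FPKM to 15.7 ± 1.61 FPKM (-0.77; difference 1.56, SE 0.19, adjusted p = 0.00558). CDKB1;2 fell in the wild type from 16.6 ± 0.567 FPKM to 9.83 ± 1.53 FPKM (-0.85; difference 2.31, SE 0.17, adjusted p = 3.12e-04), and its level in the mutant at 22 °C, 5.2 to 5.91 FPKM, was the lowest of the 4 groups. SPX1, a sensor of phosphate state, rose by 2.29 in the mutant and 0.98 in the wild type (difference 1.32, SE 0.15, adjusted p = 0.00534). Some genes that fell in the mutant also had a called difference. J11 had 0.30 in the wild type (difference -2.92, SE 0.41, adjusted p = 0.0112) and BAM9 -1.9 (difference -1.48, SE 0.22, adjusted p = 0.0136), the latter with an adjusted p of 0.0502 without wild-type replicate 2 at 22 °C.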

How the data were processed

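Per the labels, polyadenylated RNA of flowers was sequenced paired-end on an Illumina instrument from libraries of the dUTP second-strand type. StringTie 1.3.4d, HISAT2 2.0.4 and cutadapt 1.9 are named, with the genome build TAIR10, in the submitters' processing notes. The deposited table holds FPKM values and expected counts for 27715 genes, and the step from StringTie to counts and its strand setting are not given in the sources used here. Overlapping or antisense genes may thus share reads. The deposited expected counts are whole numbers and were tested as they stand. Of values from 1 to 20 in genes listed with 1 transcript, 47.2% are multiples of 4, so the number of fragments behind a count is not known, and a group at 0 was given a floor of 12 counts per library, for 3 fragments, which covers counting error only. Total counts per mutant library ran from 44983198 to 53249866.

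Counts of all 12 libraries were fitted with edgeR 4.0.16 in R 4.3.3 (quasi-likelihood, a mean per group, filterByExpr with a minimum count of 10, trimmed mean of M-values, 8 residual degrees of freedom, biological coefficient of variation 25.1%). The filter left out 4130 genes. All tests were two-sided, and p-values were adjusted after Benjamini and Hochberg over all 23585 genes, and the script was tested on simulated data. FPKM gave levels. Replicate numbers showed no strong pairing of the mutant libraries (correlations of same-number deviations from -0.128 to 0.000966). Alternatives were DESeq2 1.42.0, limma 3.58.1 on log2(FPKM + 1) or log2(FPKM + 0.1), other scalings, filters and library subsets, a replicate block, counts divided by 4 and a test against a 1.5-fold change.

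The samples compared, the gene lists (29 lists with 948 members in the table; 60 names were not matched) and the tests were chosen with earlier results of these data known. Symbols came from the RefSeq annotation of TAIR10.1, which matched 27265 genes (98.4%), and promoters from its genome. Named genes were those with the largest changes, list members, and up to 4 members of each annotation term with the smallest p. AT1G71000, ATMG00650, ATMG01170, HAC1, HDT4, HIS1-3, MEF3, PAC1, AT5G51630 and UF3GT were chosen after their values were seen. Gene families were taken from the table's descriptions.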

Additional observations from a re-analysis of the deposited data

Results flagged for a closer look

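Each result here is a heat response that differed between the mutant and the wild type by the test of the difference itself (edgeR's quasi-likelihood test, Benjamini-Hochberg adjusted), given as mutant minus wild type on the log2 scale. Each gene is shown because that test passed. Among the genes named in the text, the most negative differences were in J11 (-2.92, SE 0.41, adjusted p = 0.0112), HSFB2B (-2.38, SE 0.18, adjusted p = 3.12e-04), DREB2A (-2.17, SE 0.31, adjusted p = 0.0115) and HSFB2A (-2.16, SE 0.24, adjusted p = 0.0043). HSFB2A and HSFB2B were higher at 38 °C in the wild type and lower in the mutant. Chaperone and stress genes followed with HSP70T-2 (-1.71, SE 0.15, adjusted p = 7.94e-04), BAG6 (-1.47, SE 0.19, adjusted p = 0.0086), SR45A (-1.15, SE 0.16, adjusted p = 0.00929), AT1G54050 (-1.40, SE 0.23, adjusted p = 0.0175) and HSP101 (-1.09, SE 0.17, adjusted p = 0.0172). BAM9 (-1.48, SE 0.22, adjusted p = 0.0136) and ATG8E (-1.12, SE 0.20, adjusted p = 0.0254) fell further in the mutant. Positive differences were in CDKB1;2 (2.31, SE 0.17, adjusted p = 3.12e-04), ARR7 (1.56, SE 0.19, adjusted p = 0.00558), ARR5 (1.55, SE 0.27, adjusted p = 0.0231), SPX1 (1.32, SE 0.15, adjusted p = 0.00534) and SOT16 (1.1, SE 0.16, adjusted p = 0.0131).

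The call for ARR5 was lost, with adjusted p up to 0.0785, without mutant replicate 1 at 22 °C, mutant replicate 2 or 3 at 38 °C, wild-type replicate 1 or 2 at 22 °C, or wild-type replicate 1 or 2 at 38 °C. That for ATG8E was lost, with adjusted p up to 0.0828, without mutant replicate 1 or 2 at 22 °C, mutant replicate 3 at 38 °C, wild-type replicate 1 or 2 at 22 °C, or wild-type replicate 1 or 3 at 38 °C. AT1G54050 lost its call, with adjusted p up to 0.0652, without replicate 3 of the mutant at 38 °C, replicate 1 of the mutant at 22 °C, or any of wild-type replicates 1 and 2 at 22 °C and 1 at 38 °C. HSP101 lost its call without wild-type replicate 2 at 22 °C or wild-type replicate 1 at 38 °C, and BAM9 without wild-type replicate 2 at 22 °C. The other 11 genes kept theirs without any 1 library. Without the 3 libraries that lay apart 11 of the 16 calls were lost, and with a replicate block 2.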

How the results depend on the processing

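No named gene that passed changed direction under any alternative run. For heat in the mutant, 5875 genes passed, and 3721 did with the 6 mutant libraries alone (1716 higher, 2005 lower). Against a 1.5-fold change 372 passed (214 higher, 158 lower, 195 and 142 of them by at least 2-fold). With scaling on reference genes 6458 were higher and 827 lower (1410 and 236 by at least 2-fold). Limma called 2089 lower on log2(FPKM + 1) and 2062 on log2(FPKM + 0.1), where 951 were higher by at least 2-fold, as were 955 with DESeq2. Without the 3 libraries that lay apart (mutant replicate 2 at 22 °C, mutant replicate 1 and wild-type replicate 2 at 38 °C) 1948 were lower, 264 by at least 2-fold. The heat response difference, 374 genes, was 1842 with DESeq2, 185 with limma on log2(FPKM + 0.1), 128 with a replicate block, 10 against a 1.5-fold change and 24 without those 3 libraries. At an unadjusted p under 0.05 edgeR had 3836. XBAT31 at 22 °C (-0.93) missed the test against a 1.5-fold change (adjusted p = 0.109). The cause of these shifts was not tested.

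Leaving out any 1 library gave 4017 to 5726 genes for heat in the mutant, 1840 to 2835 higher and 2177 to 3166 lower, 448 to 726 higher and 312 to 836 lower by at least 2-fold, and 60 to 499 for the difference. XBAT31 ranged from -0.97 to -0.84 at 22 °C and from -1.20 to -1.13 at 38 °C. Of 112 named genes that passed, 110 kept the call without any 1 library, 54 lost it against a 1.5-fold change, 5 without the 3 libraries and 4 with reference scaling. Same-number libraries did not deviate together (r from -0.28 to 0.266 over all pairs), so the numbers do not pair samples. The replicate block called 5012 genes (2247 higher, 2765 lower), 4901 of them shared, and lost 1 named call.

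Depth limits are those of 3 libraries per group and of counts whose number of fragments is not known.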

Other observations

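Genes of glucosinolate synthesis, which make the sulfur-rich defence compounds of the cabbage family, were higher in 11 of 26 cases and lower in 4, with a median log2 fold change of 0.60 against -0.0025 for all genes. In the wild type none rose and 7 fell, and the test of the difference passed for 1 of the 26, the sulfotransferase SOT16 (mutant minus wild type 1.1, SE 0.16, adjusted p = 0.0131), which rose by 0.64 in the mutant. For SUR1 it did not pass (0.53, SE 0.13, adjusted p = 0.0801). SUR1, the C-S lyase of the pathway, stood at 21.99, 21.2 and 24.9 FPKM at 22 °C and 33.9, 38.4 and 35.4 FPKM at 38 °C (log2 fold change 0.56 with SE 0.095, adjusted p = 0.00203). CYP83A1, which acts on the aldoximes made from methionine, stood at 5.28, 1.46 and 3.71 FPKM at 22 °C and 10.99, 20.9 and 15.03 FPKM at 38 °C (log2 fold change 2.06 with SE 0.44, adjusted p = 0.00666). For CYP83A1 replicate 2 was the lowest library at 22 °C and the highest at 38 °C, as it was for the summed photosynthesis genes (10024 and 23997 FPKM). The part of tissue makeup in these values was not tested. The 11 came down to 7 without mutant replicate 1 at 22 °C or wild-type replicate 1 or 3 at 38 °C, and to 5 without mutant replicate 2 or 3 at 38 °C. The 4 that fell came down to 2, 1 or 0 without any 1 of the mutant libraries.

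Of 60 genes of leaf and sepal photosynthesis 5 rose and 1 fell, and 3 rose without replicate 2 or 3 at 38 °C. The light-harvesting gene LHCB1.1 stood at 20.01, 8.52 and 29.3 FPKM at 22 °C and 66.5, 74.2 and 60.4 FPKM at 38 °C (log2 fold change 1.69 with SE 0.35, adjusted p = 0.00537), with no overlap of the groups. Near-identical copies of it may share reads. Of 104 immune receptors of the TIR-NBS-LRR class, which sense pathogen proteins inside the cell, 22 rose and 1 fell, and 14 rose without replicate 1 at 22 °C, 12 without replicate 2 and 10 without replicate 3 at 38 °C. AT5G51630 of that class stood at 1.98, 1.6 and 2.15 FPKM at 22 °C and 4.41, 3.77 and 3.71 FPKM at 38 °C (log2 fold change 0.94 with SE 0.13, adjusted p = 6.15e-04). Of 39 jasmonate genes 11 rose and 3 fell. The 11 came down to 5 without replicate 1 and 6 without replicate 2 at 22 °C, to 3 without replicate 2 and 1 without replicate 3 at 38 °C, and to 7 without wild-type replicate 1 or 3 at 38 °C.

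Of 102 tested genes described as basic helix-loop-helix factors 1 rose and 20 fell, or 12 without replicate 2 at 22 °C. With scaling on reference genes 15 rose and 6 fell. These descriptions do not cover the whole family, since PIF4, PIF5 and PIF7 rose and at most 1 of them can be counted here. Of 31 genes of tapetum and pollen wall 2 fell (6.45%), under the share of all tested genes (13.6%), and none rose. With scaling on reference genes 8 were higher and none lower. ILL5, an amidohydrolase of auxin conjugates by its name, had 0 counts throughout at 22 °C and stood at 2.43, 5.23 and 1.61 FPKM at 38 °C, at least 19.2-fold higher from the floor of 12 counts per library. UF3GT, a glycosyltransferase of anthocyanin synthesis, stood at 0.188, 0.733 and 0.668 FPKM at 22 °C and had 0 counts throughout at 38 °C, at least 3.38-fold lower from the same floor.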
